A study of Mus musculus with 6 samples.

Results

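Recurrent regions of histone H3 acetylation at lysine 27 (H3K27ac) that lie at the ends of genes were described in heart muscle nuclei. Overlapping peaks of 6 libraries were merged into 112705 regions on chromosomes 1 to 19. A region was kept when at least 2 libraries had a peak in it and when it overlapped a window of 1 kb on either side of an end of a protein-coding gene in RefSeq. This gave 9161 gene-end regions, 20.3% of the 45032 recurrent regions, while 35871 recurrent regions lay elsewhere. The regions were thus selected on peak calls in these same libraries (their recurrence) and on position, and both are given below as descriptions. Of all merged regions, 40% were recurrent.

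The material was left ventricular nuclei from 8 to 12 week old FVB mice, sorted with an antibody to PCM-1, a protein that surrounds cardiomyocyte nuclei, and profiled by CUT&RUN, in which an antibody directs a nuclease to cut out the chromatin it binds. One group was wild type (WT) and the other (HOM) carried a deletion of the neighbouring genes Nppa and Nppb, which encode the atrial and B-type natriuretic peptides, with 3 libraries in each. For the series in general, the labels name Myh6-MerCreMer, nTnG and Sun1/sfGFP reporter mice on the FVB/N background, but they do not tie these alleles to single libraries, and the ends of the deletion are not stated. The labels do not state whether each library is from its own mouse, so a p-value here measures only the spread between these libraries, which may be technical. Values are given in the order of replicates 1, 2 and 3 of a genotype, and where only 2 values stand for HOM they are of replicates 1 and 3.

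The 6 lists differed widely in length. They held 21340, 72362 and 106605 peaks in WT, against 48102, 1462 and 15184 in HOM. HOM replicate 2 stands apart, with peaks covering a median of 72 bp of the gene-end regions called in it, against 283 to 586.5 bp in the other 5 libraries. WT replicate 1 and HOM replicate 1 also stand apart by number, with 149 and 156 peaks on the Y chromosome, where the other 4 libraries had 18 to 44. These counts are not scaled to list length. HOM replicate 2 had 19 among its 1462 peaks, the largest share of any list. The lists hold no read counts, so sequencing depth is unknown and cannot be told apart from other sources of list length. The differences between genotypes are given with and without these libraries. The ends of all 10 cardiomyocyte marker genes had a recurrent region, and none of 6 fibroblast and none of 6 endothelial markers did. Of 6 markers each, 2 had one for smooth muscle and pericytes (Acta2, Cspg4) and 2 for immune cells (Cd68, Cd79a).

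H3K27ac is laid down by the acetyltransferases p300 and CBP and marks active promoters and enhancers. At an active promoter it sits on the nucleosomes that flank the start of transcription, while the start itself is largely free of nucleosomes. Promoters of broadly expressed genes tend to be rich in GC and in CpG dinucleotides, and many promoters of tissue-specific genes are not. Wide stretches of the mark are often found at genes that define a cell type.

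Promoters of 8 genes show the range of sequence at these regions, which cover some of them only in part. Pln, Myoz2, Ldb3, Xirp2 and Speg are expressed in muscle, Jun is an immediate early gene, and Mrpl43 and Zwint were among the genes whose region was called in every WT and no HOM library. Each line holds the 250 bases before the transcription start, from RefSeq on GRCm38.p6, written 5′ to 3′ on the strand of the gene. Capitals mark matches to searched motifs on either strand, and positions are counted back from the start, the base before it being -1.
Pln (chr10:53337436-53337685, strand +): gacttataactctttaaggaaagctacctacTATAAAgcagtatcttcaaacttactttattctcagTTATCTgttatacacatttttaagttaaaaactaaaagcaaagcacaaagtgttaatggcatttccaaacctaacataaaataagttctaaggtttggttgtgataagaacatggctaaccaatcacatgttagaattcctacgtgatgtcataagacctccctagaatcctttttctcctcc
Myoz2 (chr3:123034988-123035237, strand -): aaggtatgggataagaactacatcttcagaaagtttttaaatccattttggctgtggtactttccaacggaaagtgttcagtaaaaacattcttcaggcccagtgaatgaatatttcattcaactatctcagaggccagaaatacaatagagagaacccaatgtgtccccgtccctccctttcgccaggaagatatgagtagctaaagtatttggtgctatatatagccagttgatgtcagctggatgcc
Ldb3 (chr14:34588682-34588931, strand -): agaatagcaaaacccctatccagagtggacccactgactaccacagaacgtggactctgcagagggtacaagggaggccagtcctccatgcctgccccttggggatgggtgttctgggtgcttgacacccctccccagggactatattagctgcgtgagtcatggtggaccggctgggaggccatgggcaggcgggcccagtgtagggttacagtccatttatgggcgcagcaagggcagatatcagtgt
Xirp2 (chr2:67445752-67446001, strand +): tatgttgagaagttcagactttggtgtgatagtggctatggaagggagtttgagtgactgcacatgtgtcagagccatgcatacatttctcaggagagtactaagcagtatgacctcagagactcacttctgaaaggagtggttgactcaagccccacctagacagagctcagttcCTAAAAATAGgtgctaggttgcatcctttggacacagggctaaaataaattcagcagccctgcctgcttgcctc
Speg (chr1:75375047-75375296, strand +): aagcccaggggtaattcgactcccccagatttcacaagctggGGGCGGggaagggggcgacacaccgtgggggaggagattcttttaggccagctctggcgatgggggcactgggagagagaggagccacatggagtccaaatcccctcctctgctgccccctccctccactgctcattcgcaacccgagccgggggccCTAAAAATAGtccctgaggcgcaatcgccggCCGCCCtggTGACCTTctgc
Jun (chr4:95052223-95052472, strand -): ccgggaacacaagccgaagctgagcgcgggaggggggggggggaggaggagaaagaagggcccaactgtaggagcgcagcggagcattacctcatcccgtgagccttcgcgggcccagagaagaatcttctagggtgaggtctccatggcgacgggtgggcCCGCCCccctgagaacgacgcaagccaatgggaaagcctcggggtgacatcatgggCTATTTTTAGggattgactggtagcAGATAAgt
Mrpl43 (chr19:45006443-45006692, strand -): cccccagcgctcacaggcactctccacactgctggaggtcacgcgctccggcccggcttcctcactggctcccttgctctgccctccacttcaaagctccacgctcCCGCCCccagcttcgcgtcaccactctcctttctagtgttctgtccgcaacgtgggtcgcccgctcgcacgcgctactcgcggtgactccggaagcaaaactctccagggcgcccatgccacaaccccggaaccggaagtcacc
Zwint (chr10:72654596-72654845, strand +): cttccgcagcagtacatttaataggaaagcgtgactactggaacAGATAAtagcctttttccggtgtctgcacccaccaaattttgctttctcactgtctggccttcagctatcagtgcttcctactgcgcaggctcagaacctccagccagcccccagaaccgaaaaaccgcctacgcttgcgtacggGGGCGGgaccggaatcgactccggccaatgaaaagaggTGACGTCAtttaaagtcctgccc
The Pln promoter had TATAAA at -219 and a match to AGATAA, read on the other strand, at -183. It held 1 CpG dinucleotide in these bases, Xirp2 held 0, Myoz2 held 3 and Ldb3 held 5. Speg and Jun held 12 and 15, Zwint 14 and Mrpl43 22. The motif of the MEF2 factors, a run of A and T between C and G, lay at -74 in Xirp2, at -51 in Speg and, on the other strand, at -33 in Jun. Zwint had the cyclic AMP response element TGACGTCA at -23 and GGGCGG, the letters of a GC box, at -61. The GC box of Mrpl43 lay at -144. A gene-end region overlapped all 8 of these stretches, in 3 libraries for Mrpl43 and Zwint, in 6 for Myoz2 and in 5 for the other 5. The overlap was partial at Pln, Mrpl43, Jun and Zwint. The Jun region began at chr4:95052462 and the Zwint region ended at chr10:72654727. The motifs named above for Jun and Zwint therefore lay outside these regions. Except Pln, Myoz2 and Ldb3, these genes were chosen for display after their values were seen.

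Gene-end regions were mostly short and mostly called in few libraries. Of the 9161 regions, 3894 had a peak in 2 libraries, 2520 in 3, 1462 in 4, 1205 in 5 and 80 in all 6. Their median width was 655 bp, with quartiles at 398 and 1140 bp, and recurrent regions elsewhere had a median of 656 bp. The median was 405 bp for regions in 2 libraries, 706 in 3, 1122 in 4, 2115 in 5 and 2932 in 6. A merged region is the union of its peaks, so width and recurrence are tied by construction. Just outside the rule were 8497 gene-end regions with a peak in 1 library, with a median width of 205 bp, of which 6730 came from WT replicate 3. A window of 2 kb would have added 1993 recurrent regions with a median width of 603 bp.

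The share of regions that lay at gene ends changed with recurrence. It was 12.6% of regions called in 1 library, 18.04% in 2, 22.0% in 3, 23.8% in 4, 22.9% in 5 and 13.5% in all 6, beside 15.7% of all merged regions. A wider region overlaps a fixed window more readily, so this share depends on width too. At gene ends median width was 205 bp for 1 library, 2115 bp for 5 and 2932 bp for 6. Elsewhere it was 202, 2316 and 1243 bp in the same order. The number of regions found in every library was limited by the short list of HOM replicate 2, and the difference between these shares was not tested.

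**Figure D1:**
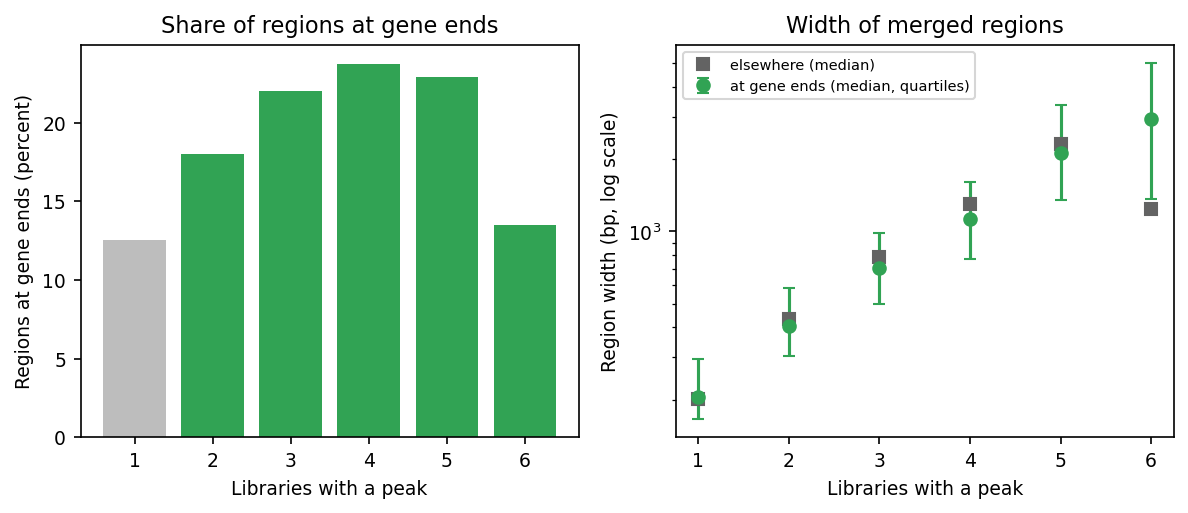
Left, percent of merged regions that overlap a gene-end window, by the number of libraries with a peak (grey, 1 library, outside the rule). Right, width of merged regions in bp on a log scale, as median with quartiles at gene ends (green) and as median elsewhere (grey squares). The share at gene ends is highest at 4 libraries, 23.8%, and is 13.5% at 6.

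The peaks of each library that made up the regions followed the length of its list. A peak was present in 2856, 8087 and 9038 of the regions in WT, which is 31.2%, 88.3% and 98.7%. For HOM the numbers were 5594, 127 and 1999, which is 61.1%, 1.39% and 21.8%. WT replicates 2 and 3 alone accounted for 2823 regions, 30.8% of all, and together with HOM replicate 1 for another 1969, 21.5%. Since the rule asks for 2 libraries, sharing was counted over all 17658 merged regions at gene ends, those called in 1 library included. Of these regions, 89.3% had a peak in WT replicate 3. The share was 95.2% of those called in WT replicate 1, 85.4% in WT replicate 2, 92.1% in HOM replicate 1 and 97.7% in HOM replicate 3.

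**Figure D2:**
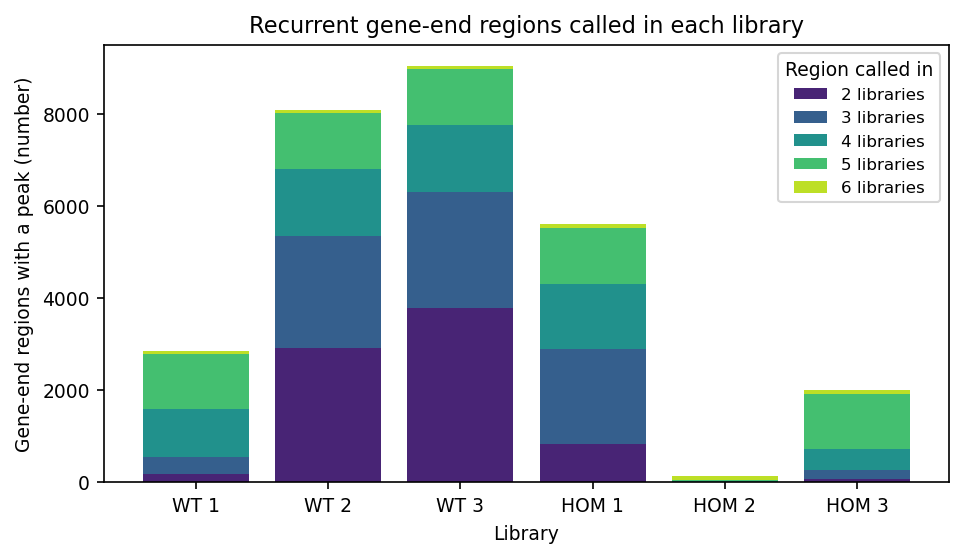
Number of recurrent gene-end regions with a peak in each library, divided by the number of libraries in which the region was called. WT replicate 3 called 9038 of the 9161 regions and HOM replicate 2 called 127.

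Most gene-end regions were at the start end of a gene. A start was taken as the outer end of the gene in RefSeq, on the side given by its strand. The transcription start in the promoter table can lie elsewhere. Strand was known for 16457 of 20665 genes, and 6734 regions, 73.5%, overlapped the window at a known start. A further 786, 8.58%, overlapped only the window at the far end of a gene, and 1641 lay at ends of genes without a known strand and at no known start. Of genes with a known strand, 31.4% had a region at the start and 6.4% at the far end. Median width was 651 bp at starts and 669 bp at far ends only. Among regions called in WT replicate 3, peaks covered more than 2 kb at 9.35% of the former and 13.7% of the latter. In HOM replicate 2 a peak was present in 1.14% of start regions and in 3.05% of far-end regions, and in HOM replicate 1 in 61.2% and 56.9%. Starts of genes on both strands, as in divergent promoters, shared 839 regions, 9.16%. That share was 8.89% of regions in 2 libraries, 10.7% in 3, 9.99% in 4, 6.14% in 5 and 3.75%, or 3 regions, in 6.

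Few peak summits lay at the transcription start itself. The summit is the position of highest signal in a peak, and summits were counted within 1 kb of 5879 starts with no other gene end nearby. Only 3.15%, 4.82% and 4.98% of them lay within 100 bp of the start in WT, against 5.03% and 6.85% in HOM. The 100 bp just before the start held 1.05% to 2.94% of summits in these 5 libraries. The densest stretch before the start in WT and HOM replicate 1 was 200 to 300 bp away, with 8.41%, 10.4%, 11.5% and 10.01% of summits. In HOM replicate 3, with 511 summits, that stretch held 5.68%. Beyond the start, the stretch from 100 to 200 bp held 3.42%, 6.94% and 8.98% in WT, against 7.01% and 5.68% in HOM. Within 500 bp of the start, all 5 profiles were lowest in the 100 bp just before it, in both genotypes. Summits were divided evenly between the sides, 50.3% to 53.4% lying inside the gene. HOM replicate 2 had only 24 summits near these starts, of which 17 lay inside the gene (70.8%, 95% Wilson interval 50.8% to 85.1%, counting error only).

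**Figure D3:**
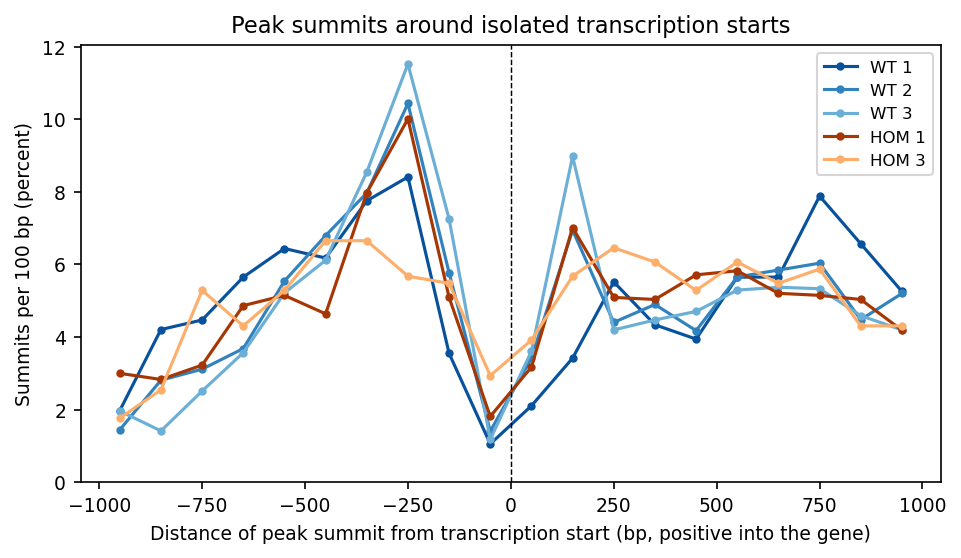
Percent of peak summits in each 100 bp step of distance from 5879 isolated transcription starts, in 5 libraries (HOM replicate 2, with 24 summits, left out). Within 500 bp of the start all lines are lowest just before it, and 4 of the 5 peak 200 to 300 bp before it.

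A gene-end region was present at 6825 of 20665 protein-coding genes, 33%, of which 3027 had 2 or more. Its presence differed widely between gene classes. Contractile and sarcomere genes had one at 19 of 20 genes, ion channel and calcium handling genes at 19 of 20, fatty acid and energy metabolism at 19 of 19, the tricarboxylic acid cycle at 17 of 17, immediate early and stress genes at 23 of 24 and cardiac transcription factors at 18 of 20. Families of sensory receptors, skin proteins and body patterning were nearly or wholly without: 1 of 1100 olfactory receptor genes, 2 of 352 vomeronasal receptor genes, 2 of 49 keratin genes and 0 of 39 Hox genes. Of 12 fibroblast and 13 endothelial genes, 0 had one, against 3 of 12 immune and 3 of 10 smooth muscle and pericyte genes. The lists were chosen with earlier results of these data known, and the counts carry no test.

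The cytosolic ribosomal proteins, which every cell needs in quantity, and the genes of heart muscle differed in how far their regions reached down the lists. A region was called at 13, 47 and 54 of 78 cytosolic ribosomal protein genes in WT, at 37 in HOM replicate 1 and at 1 in HOM replicate 3. That gene was Rpl3l, a paralog of Rpl3 that is expressed in muscle. As shares these were 16.7%, 60.3% and 69.2% in WT, against 47.4% and 1.28% in HOM. For all protein-coding genes the shares were 13.5%, 30.8% and 32.8% in WT, against 23.6% and 9.77% in HOM. Contractile genes were called at 16, 19 and 19 of 20 in WT, against 19 and 18 in HOM. Among all protein-coding genes, 6.91% were called in every library but HOM replicate 2, and the share was 1.28% for cytosolic ribosomal proteins, 75% for contractile genes, 84.2% for fatty acid and energy metabolism and 70% for cardiac transcription factors. With these 5 lists limited to their 15052 strongest peaks each, ribosomal protein genes were called at 8, 7 and 13 of 78 in WT, against 9 and 1 in HOM. Contractile genes were then called at 15, 18 and 19 of 20 in WT, against 17 and 18 in HOM. All protein-coding genes were then called at 1776, 2136 and 2502 of 20665 in WT, against 1926 and 1670 in HOM. At that length the ribosomal share was near or above the share of all genes, except in HOM replicate 3, where it was lower. Many ribosomal protein genes have near-identical processed copies, and how reads that match several places were treated is not given in the sources used here.

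Rpl3l had 1088, 2715 and 3985 bp covered by peaks at its ends in WT, against 1645 and 848 bp in HOM. The next ribosomal protein genes by number of libraries were Rps21, with 336, 1274 and 2728 bp in WT, against 576 bp in HOM replicate 1, and Rpl27a, with 661, 919 and 1431 bp in WT, against 501 bp in HOM replicate 1. Respiratory chain subunits stood between the ribosomal and the contractile genes, at 48, 71 and 72 of 78 genes in WT, against 69 and 38 in HOM. Their leading genes were Cox6a2 and Cox8b, the muscle forms of a pair of cytochrome c oxidase subunits, and Ndufb4 of complex I. Cox6a2 had 778, 2833 and 3820 bp covered in WT, against 1576 and 551 bp in HOM. Mitochondrial ribosomal proteins had a region at 53 of 77 genes, proteasome subunits at 26 of 38, initiation factors at 31 of 53, aminoacyl-tRNA synthetases at 19 of 34 and histone cluster genes at 17 of 68.

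**Figure D4:**
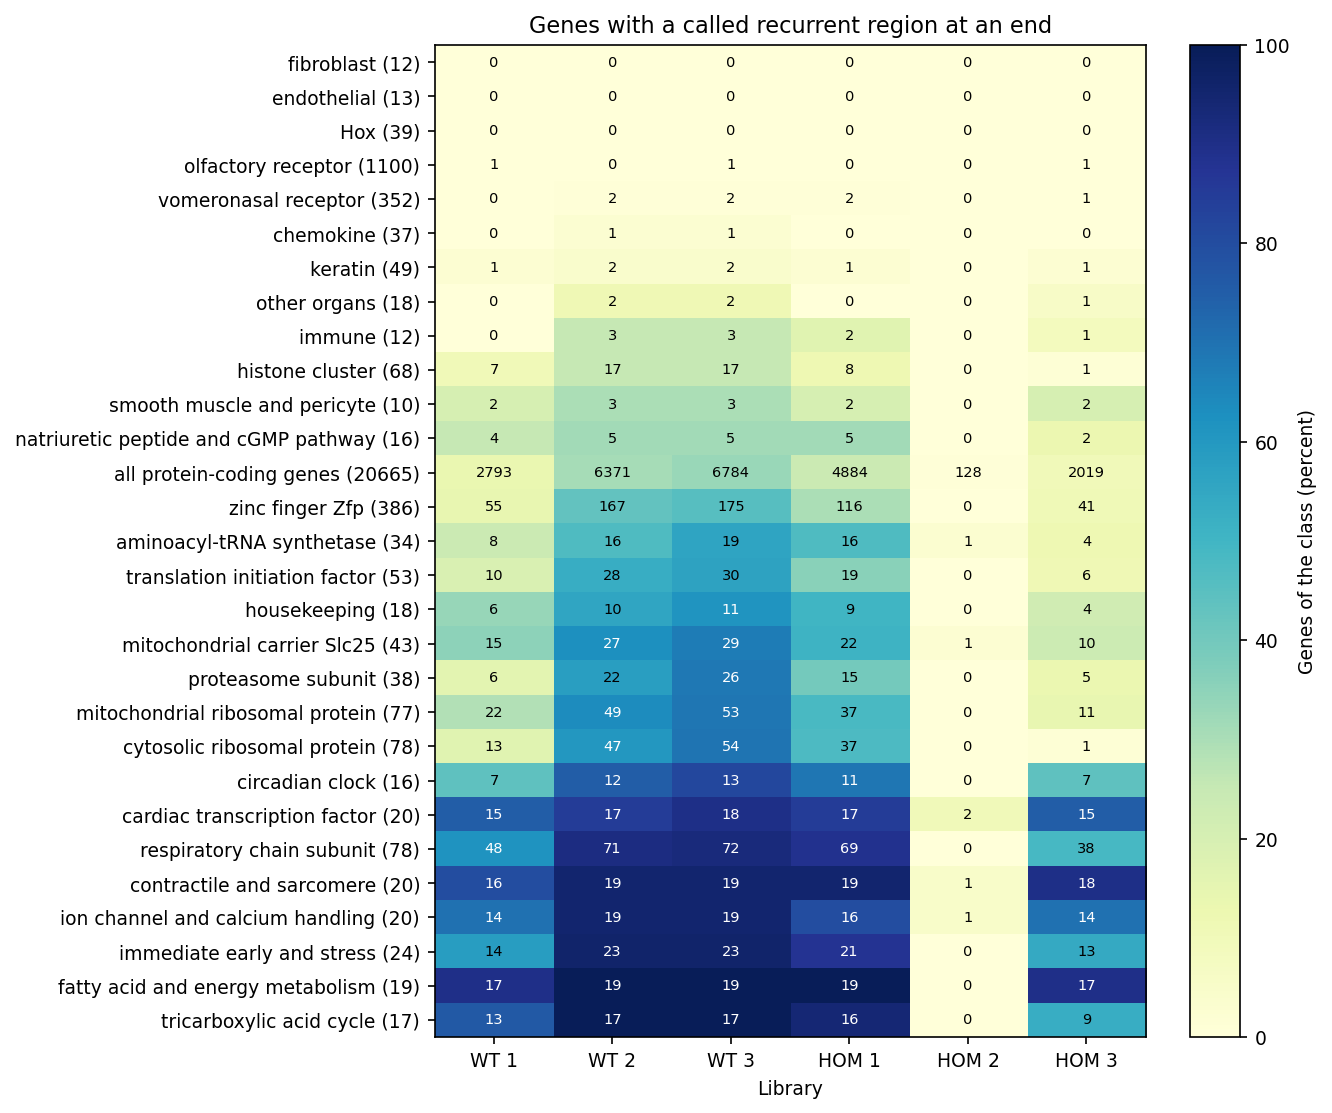
Genes of each class with a recurrent gene-end region called in each library. Colour gives the percent of the class, the number in each cell the count of genes, and the number in brackets the class size on chromosomes 1 to 19. Contractile genes reach 16 to 19 of 20 in all libraries but HOM replicate 2, while cytosolic ribosomal proteins range from 1 to 54 of 78 in the same libraries.

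Covered length ranked the classes in a similar way. For each gene the length covered by peaks in its gene-end regions was averaged over the 6 libraries, a library without a peak counting as 0 bp. The median was 2158.5 bp for cardiac transcription factors, 1677 bp for fatty acid and energy metabolism, 1305 bp for ion channels and calcium handling, 1266 bp for contractile genes, 985 bp for immediate early genes and 720 bp for the respiratory chain. It was 200 bp for cytosolic ribosomal proteins, 167 bp for proteasome subunits and 317 bp for all genes with a region. Each sum depends on how much was called in a library, so it describes these lists and not an amount of acetylation.

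Among contractile genes, Myoz2, a calcineurin-binding protein of the Z-disc, was called in all 6 libraries. Its regions covered 1709, 4109 and 4827 bp in WT, against 3214, 57 and 930 bp in HOM. Ldb3, which holds Z-discs together, had 2777, 7686 and 9471 bp in WT, against 5441 and 2061 bp in HOM. Csrp3, a mechanosensing LIM protein, had 2847, 12046 and 13969 bp in WT, against 8033 and 2480 bp in HOM. Nebl was the contractile gene without a region. In all 3 genes the order of libraries was that of list length, and the values of the 2 genotypes overlapped.

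Of the cardiac transcription factors, Mef2d and Irx4 were called in all 6 libraries and Hand2 in 5, and Hand1 and Tbx5 had no region. Pln and Trdn were among the channel and calcium genes with a region, while Cacnb2 had none. Leading genes of fatty acid metabolism were Cd36, the fatty acid transporter, and Hadha and Hadhb, the divergently placed genes of the mitochondrial trifunctional protein, which share a promoter region. Among clock genes Nr1d1, Per1 and Dbp, all targets of the BMAL1 and CLOCK activators, were called in 5 libraries, and Arntl, Clock and Hlf had no region. Klf9, Klf6 and Jun led the immediate early genes, and Egr3 had none. Cs, Ogdh and Sdhc led the tricarboxylic acid cycle. Housekeeping genes had a region at 11 of 18, among them Actb and Gapdh, but not Eef1a1, Eef2 or Gusb. In the natriuretic peptide and cGMP pathway 5 of 16 genes had one, led by Corin, the protease that activates atrial natriuretic peptide, Prkg1, the cGMP-dependent kinase, and Pde3a, a cyclic nucleotide phosphodiesterase. The soluble guanylate cyclase genes Gucy1a1, Gucy1a2 and Gucy1b1 had none.

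The region with the largest covered length lay at Coq8a, a gene of coenzyme Q synthesis, at chr1:180174130-180195947. It covered 5348, 20494 and 21746 bp in WT, against 14593, 0 and 4642 bp in HOM. Pln, the inhibitor of the sarcoplasmic calcium pump, followed with a region at chr10:53325100-53337569 that covered 7339, 11715 and 12470 bp in WT, against 11021, 0 and 5345 bp in HOM. Next came Meis1, a homeobox factor that holds cardiomyocytes out of the cell cycle, with 5201, 13424 and 14658 bp in WT, against 8549, 0 and 4309 bp in HOM. The other regions of the first 10 were at Mfn2 (mitochondrial fusion), Gpr22, Trdn (a calcium release complex protein), Cep57l1 with Sesn1, Acss1 (mitochondrial acetyl-CoA synthesis), Slc25a13 (the aspartate-glutamate carrier) and B4galt1. In all 10 the HOM values lay within or below the WT range, in the order of list length among WT replicates 2 and 3 and HOM replicate 1. Of the 152 gene-end regions wider than 5 kb, 149 were called in 3 WT and at least 2 HOM libraries. Width is the union of the peaks of all libraries, so this count is tied to width by construction. Wide regions elsewhere were not counted in this way.

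The strongest regions called in all libraries but HOM replicate 2 were ranked by fold enrichment, the authors' value for each peak, given as its percentile within the library. The first was at Cd36, with a mean percentile of 99.4 and authors' folds of 8.87, 13.3 and 23.3 in WT, against 9.06 and 8.41 in HOM. Hand2, Zfp568, Fsd1l, Plekhf1, Mlycd (malonyl-CoA decarboxylase), Gata4, Pln, Alad and Meis1 followed, with mean percentiles from 99.0 to 98.3.

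**Figure D5:**
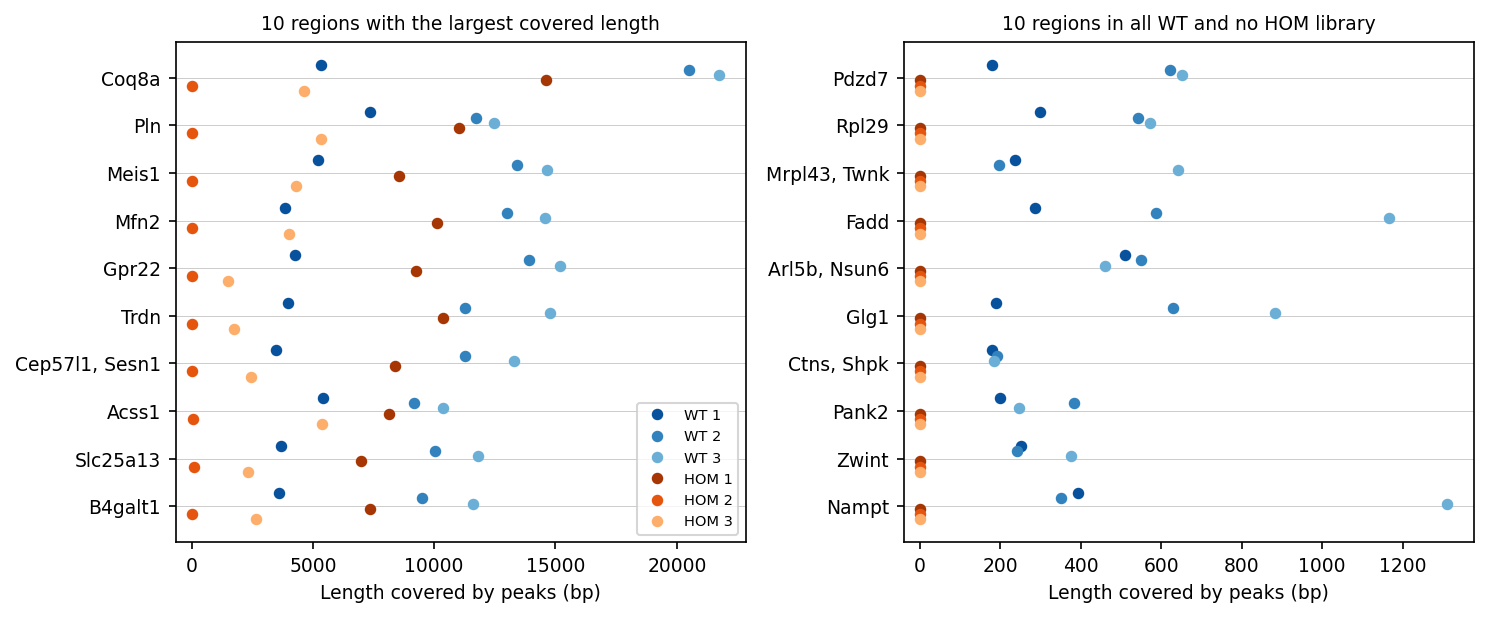
Length covered by peaks, in bp, in each library at the 10 regions with the largest mean covered length (left) and at the 10 strongest regions called in every WT and no HOM library (right). Points are single libraries. At Coq8a HOM replicate 1, at 14593 bp, lies inside the WT range of 5348 to 21746 bp, and all HOM points on the right are at 0 bp.

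The 80 regions called in all 6 libraries, 0.873% of gene-end regions beside 1.32% of all recurrent regions, included narrow regions of nearly constant length. Their first 4 by fold percentile lay at the far ends of Wls, Gm21814, Vsnl1 and Lars2. At Wls, peaks covered 493, 464 and 469 bp in WT, against 472, 268 and 475 bp in HOM, with authors' folds of 38.7, 37.9 and 47.0 in WT, against 41.5, 26.95 and 43.3 in HOM. At Vsnl1 they covered 1105, 1126 and 1114 bp in WT, against 1111, 887 and 1066 bp in HOM, with folds of 43.2, 60.03 and 72.1 in WT, against 47.9, 15.4 and 37.8 in HOM. Gm21814 and Lars2 covered at most 317 and 586 bp. Over the 5 libraries other than HOM replicate 2, the ratio of the largest to the smallest covered length had a median of 4.13 across the 80 regions. It was below 1.5 at 10 of them, which were Wls, Gm21814, Vsnl1, Lars2, Sfi1, Gm40469, Slc30a4, Tmem267, Gm40367 and LOC100504180. The length at these 10 thus did not follow list length as it did at the muscle genes. Apart from the rule above, no region was left out here for its sequence or signal. How reads that match several places were treated is not given for these regions either. The next of the first 10 were 1600014C10Rik, Acss1, Dysf (membrane repair in muscle), Sfi1, Gm40469 and Pkdcc, and 46 of the 80 regions, 57.5%, lay at a known start.

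At the deleted genes themselves, 3 regions were called in WT libraries and in no HOM library. Calls in 2 WT and 0 HOM libraries were common, at 32.7% of gene-end regions beside 37.4% of all recurrent regions, and calls in 3 WT and 0 HOM were made at 3.08% beside 2.61%. The region at chr4:148000052-148000647, within 1 kb of the start of Nppa, covered 321, 509 and 571 bp in WT. A pair at Nppb, chr4:147985013-147985661 and chr4:147985977-147987127, covered 235 and 621 bp, and 225 and 1151 bp, in WT replicates 2 and 3. All HOM libraries were at 0 bp there. The next region, chr4:148003016-148004485, between the far end of Nppa and the end of Clcn6, a chloride transporter gene, was called in both genotypes. It covered 0, 361 and 874 bp in WT, against 1179, 0 and 499 bp in HOM.

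Across all gene-end regions, the libraries of the 2 genotypes overlapped in each of the 4 main measures. With 3 libraries against 3, the smallest exact permutation p is 0.1, so none of these comparisons could pass 0.05. Gene ends took 14.0%, 15.5% and 15.8% of peaks in WT, against 14.8%, 8.67% and 13.4% in HOM, a difference of -2.83 percentage points (two-sided exact permutation p = 0.2). The share of regions called averaged 72.7% ± 36.3 for WT and 28.1% ± 30.3 for HOM (SD, n = 3), a difference of -44.6 points (exact permutation p = 0.2). The median covered length of called regions, on the log2 scale of bp, came to 8.68 ± 0.50 for WT and 7.59 ± 1.24 for HOM (SD, n = 3), a difference of -1.09 (exact permutation p = 0.2). For the median fold percentile the values were 66.8 ± 11 and 51.4 ± 17.7 (SD, n = 3), a difference of -15.4 (exact permutation p = 0.4). HOM replicate 1 lay inside the WT range in all 4 of these measures. With the mean percentile of a region's peaks in place of the highest, the percentile difference was -20.9 (exact permutation p = 0.1, the smallest possible). All HOM libraries then lay below all WT libraries. Between the 2 libraries with over 100 peaks on the Y chromosome, HOM replicate 1 minus WT replicate 1, all 4 differences turned positive, at 0.773 points of peaks, 29.9 points of regions, 0.26 on the log2 scale and 5.80 percentiles. Among the other 4 libraries all were negative, at -4.63, -81.9, -1.76 and -25.98 in the same order. This split is by number of Y peaks and not by their share of the list, and it places HOM replicate 2 among these 4. Over all libraries but HOM replicate 2 the differences were -1.02, -31.3, -0.38 and -5.15. When the remaining 5 lists were also limited to equal length, they were -2.91, -12.1, -0.78 and 1.77.

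Regions called in every WT and no HOM library numbered 282, or 3.08% of gene-end regions, beside 2.61% of all recurrent regions. In the opposite direction, 0 gene-end regions were called in 3 HOM and 0 WT libraries, beside 0.00222% (1 region) of all recurrent regions. With 1 library left out, the first count asks only for every remaining WT and no remaining HOM library, which is a looser rule. On that rule it was 3116 without WT replicate 1, 453 without WT replicate 2 and 1264 without HOM replicate 1. When HOM replicate 2 was left out and the other 5 lists were limited to 15052 peaks each, 110 of 2936 gene-end regions, 3.75%, were in 3 WT and 0 HOM libraries, beside 3.7% of all recurrent regions. At that length 24 were in 2 HOM and 0 WT libraries, 0.817%, beside 1.19%. The share of gene-end regions was close to or below the background in the counts at equal length.

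The 10 strongest of the 282 regions lay at Pdzd7, Rpl29, Mrpl43 with Twnk, Fadd, Arl5b with Nsun6, Glg1, Ctns with Shpk, Pank2, Zwint and Nampt. At Rpl29 peaks covered 300, 543 and 572 bp in WT. At the divergent promoter of Mrpl43, a mitochondrial ribosomal protein, and Twnk, the mitochondrial DNA helicase, they covered 238, 198 and 642 bp. Nampt, an enzyme of NAD synthesis, had 394, 352 and 1311 bp. These regions were narrow, between 199 and 1311 bp wide. Over the 282, the median width was 639.5 bp, and 208 genes, 1.01% of protein-coding genes, were called in this pattern. A second region at Nampt, chr12:32853373-32857961, was called in both genotypes, with 1914, 2742 and 4584 bp in WT, against 1785 and 171 bp in HOM.

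Regions called in 1 WT and 2 HOM libraries numbered 29, 0.317% of gene-end regions, beside 0.318% of all recurrent regions. The first 5, by a rule added after the data were seen, lay at Gnb2, Ric8b, Pak1ip1, 2310061I04Rik with Atat1, and Eml6. At Gnb2, a G protein subunit, peaks covered 430 bp in WT replicate 3, 176 bp in HOM replicate 1 and 171 bp in HOM replicate 3. The WT library was replicate 3 in all 5, the one with the longest list.

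At the 1184 gene-end regions called in all libraries but HOM replicate 2, 12.9% of gene-end regions beside 11.4% of all recurrent regions, covered length was set against the median of all 5133 recurrent regions of this pattern in the same library. Both HOM values lay above all WT values at 145, or 12.2%, beside 12.3% of all regions of this pattern, and below at 92, or 7.77%, beside 8.22%. For the fold percentile both HOM values were above at 4, or 0.338%, beside 0.799%, and below at 203, or 17.1%, beside 16.4%. These shares too were near the background. With 3 libraries against 2, no single region was tested.

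Ccn2, a matrix protein gene induced by YAP and by stretch, had the largest difference in covered length in the lower direction. Its region, chr10:24592864-24597932, covered 1399, 4152 and 4724 bp in WT, against 1004 and 190 bp in HOM. Relative to the library medians, on the log2 scale, these were 1.47, 1.29 and 1.11 in WT, against -0.14 and -1.02 in HOM. The authors' fold there was 6.86, 9.67 and 10.8 in WT, against 4.91 and 3.78 in HOM. The HOM values were below all WT values on both scales. Pdk4, a kinase that holds back glucose oxidation, had folds of 6.05, 9.27 and 13.9 in WT, against 4.91 and 3.78 in HOM. Its fold percentiles were 89.2, 97.5 and 98.9 in WT, against 61.4 and 4.39 in HOM. Pik3r1, the regulatory subunit of PI3 kinase, had folds of 6.45, 5.24 and 8.96 in WT, against 4.15 and 3.78 in HOM. Its percentiles were 93.4, 67.1 and 91.7 in WT, against 29.3 and 4.39 in HOM. The fold of 3.78 at Ccn2, Pdk4 and Pik3r1 was the same tied value, near the lowest fold of HOM replicate 3, 3.36. In the higher direction of length relative to the library median, the uncharacterised gene 4930467E23Rik came first. It had 218, 447 and 311 bp in WT, against 753 and 376 bp in HOM, or -1.21, -1.92 and -2.81 against -0.55 and -0.04 relative to the medians. Tpt1 had 199, 970 and 1094 bp in WT, against 876 and 733 bp in HOM. Relative to the library medians its values were -1.35, -0.81 and -0.998 in WT, against -0.34 and 0.93 in HOM. The region shared by Btf3l4 and Txndc12 had 210, 1922 and 2653 bp in WT, against 1509 and 1272 bp in HOM. Its HOM values were higher only relative to the library medians, at 0.45 and 1.72 against -1.27, 0.18 and 0.28 in WT. For the fold percentile, Cgrrf1 had the largest difference in the higher direction, with 15.5, 13.4 and 47.99 in WT, against 72.6 and 61.8 in HOM. These genes were picked among the extremes after the values were seen.

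The difference in fold percentile between gene-end regions and recurrent regions elsewhere varied in sign among libraries. The median fold percentile of gene-end regions was equal to that of the others in WT replicate 1 and HOM replicates 1 and 3, where the same tied fold value was the median. It was 9.67 and 4.67 percentiles higher in WT replicates 2 and 3 and differed by -25.6 in HOM replicate 2, where 127 gene-end regions were called. The mean difference was -1.88 ± 12.2 (SD, n = 6, two-sided exact sign-flip permutation p = 1), and without HOM replicate 2 it was 2.87 (exact permutation p = 0.5, n = 5). With a −log10 q of at least 5 it was -12.7, and with the 50% of peaks of highest fold -9.50 (exact permutation p = 0.5 in both). Fold values repeat, with 68 to 81 distinct values per list, so medians tie. The log2 difference in covered length was -0.04 ± 0.07 (SD, n = 6, exact permutation p = 0.28125), above 0 in 3 libraries and below 0 in 3. It was -0.127 among regions in at least 3 libraries and -0.051 with a window of 2 kb, in both cases at an exact permutation p of 0.031, the smallest that 6 libraries allow. Start regions had a fold percentile 2.39 ± 4.03 above far-end regions (SD, n = 6, exact permutation p = 0.5), with equal medians in 4 libraries, and this difference was negative under 6 other settings.

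Long stretches were found at gene ends and elsewhere at shares that lay close together, and these shares were not tested. Peaks covered more than 2 kb of 906 of the 9038 gene-end regions called in WT replicate 3, or 10.02%, beside 10.2% of the other recurrent regions. The shares in HOM replicate 1 were 5.02% and 5.31%, in WT replicate 1 2.49% and 2.87%, and in HOM replicate 3 2.05% and 2.19%. In WT replicate 2 the share was higher at gene ends, at 7.13% beside 6.94%. HOM replicate 2 had no such gene-end region among the 127 called in it.

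Promoter sequence differed between genes with and without a region at the start. The 300 bases from 250 before to 50 after the start were taken from RefSeq for 16457 genes. Regions were matched to the outer end of the gene, which can differ from the start used for these bases. At Cd36 and Pdzd7, for example, no region overlapped the 250 bases before that start. The bases compared are thus not always those under the region. The CpG ratio, observed over expected CpG dinucleotides, had a median of 0.797 in 5173 promoters with a region and 0.392 in 11284 without, beside 0.597 in all. GC content had medians of 61.3% and 53.7%. GGGCGG was present in 66.8% of promoters with a region and 38.4% of those without (47.3% of all), and TATAAA in 6.71% and 16.7% (13.5% of all). Promoters and genes are not independent replicates, and these values are a description of the genes that the rule picked.

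Within the gene-end regions the CpG ratio was lower at the most recurrent. Its median was 0.798 for promoters whose region was called in 2 libraries, 0.810 in 3, 0.809 in 4, 0.763 in 5 and 0.651 in 6. A ratio above 0.6 was found in 81.0% of the 1671 promoters of the first group, 69.4% of the 885 in 5 libraries and 56.3% of the 48 in 6. The last group is small. Where peaks covered more than 2 kb in WT replicate 3 the median was 0.740 and TATAAA was present in 10.2%, against 0.810 and 5.91% where they covered 500 bp or less. Promoters of regions in every WT and no HOM library had a median of 0.822. Of the 5 muscle promoters printed above, Pln had a ratio of 0.109, Myoz2 0.293, Ldb3 0.239 and Xirp2 0.0577, below the median of promoters without a region, and Speg had 0.557, above it.

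Of the other motifs searched, on both strands, the NRF1 palindrome was in 2.67% of promoters with a region (1.37% of all), TGACGTCA in 3.73% (2.40%), CACGTG in 10.6% (7.97%), AGATAA in 5.70% (9.85%), CATTCC in 11.5% (13.2%) and AAGGTCA in 3.23% (4.004%). A serum response element was in 0.0387% (0.0365%). No motif of the set contains another. The MEF2 motif was in 15 promoters, 0.0911% of all, and 7 of the 15 had a region at the start, where 31.4% of all promoters had one. Of all 5173 promoters with a region, 17.1% had one called in 5 libraries. For 6 of the 7 the region was called in every library but HOM replicate 2, namely Ankrd40, Gpr146, Hdac5, Jun, Speg and Xirp2, and Mcoln1 was called in 4 libraries. The motif need not lie under the region, and at Ankrd40 no region overlapped the bases before the start that held it. A match describes the letters alone and shows no binding.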

How the data were processed

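H3K27ac CUT&RUN peaks of 6 libraries, 3 WT and 3 HOM by source name, were analysed. Per the submitters' processing notes reads were handled with BWA, MACS2 and mm10, and tool versions are not given in the sources used here. Deposited narrow peak lists, 1 per library and not pooled, hold peak positions and 5 columns that the authors' peak caller set: score, fold enrichment (a ratio), −log10 p-value, −log10 q-value and summit position. Fold, q-value and summit served for ranking, filtering and description inside each list. The score and the −log10 p-value entered no result.

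Peaks that overlap were merged into regions, and covered length is the union of a library's peaks in a region. The fold percentile is the rank of the region's highest fold among all peaks of that library. Genes came from RefSeq on GRCm38.p6, the assembly of mm10, and positions are 1-based. Strand came from the promoter table, and the starts in the window rule are outer gene ends. The list of genes named in each class was the 3 called in most libraries, ties by mean percentile, and up to 3 without a region, except that some genes are not reported here; among regions, the first 10 by percentile or covered length in each pattern. The planned promoters of Wls, Gm21814, Pdzd7 and Coq8a were not printed because no region described overlapped them, or another one did, and that of Rpl29 was not used here. Regions, gene lists and tests were chosen with earlier results of these data known.

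For differences between genotypes a two-sided exact permutation test (20 assignments of libraries) was run, and for differences within libraries an exact sign-flip permutation test over 6 libraries, whose smallest p is 0.031. Alternatives were other windows, thresholds, merging gaps, recurrence minima and list lengths, libraries left out and replicate numbers as a block. After the data were seen, means in place of medians and a split by Y chromosome peaks were added. The scripts were tested on simulated data. The tools were pandas 2.3.3, numpy 2.4.6 and scipy 1.17.1 in Python 3.11.15, with matplotlib 3.10.9 for plots.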

Additional observations from a re-analysis of the deposited data

How the results depend on the processing

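The number of gene-end regions depended on the rule. It was 4115 with a −log10 q of at least 5, 5548 with the 50% of peaks of highest fold, 2936 at equal list length without HOM replicate 2, 5267 with at least 3 libraries, and 5537 to 9156 with 1 library left out, the lowest without WT replicate 3. Regions in every WT and no HOM library numbered 98 with a −log10 q of at least 5 and 110 at equal length. With 1 library left out they numbered 286 to 3116, counted over the remaining libraries only and so on a looser rule. Those in HOM and no WT library numbered 24 at equal length. With 1 library left out, the differences HOM minus WT ranged from -4.08 to -1.02 points of peaks, -65.8 to -30.6 points of regions, -1.55 to -0.38 log2 bp and -21.0 to -5.15 percentiles. At equal length without HOM replicate 2 the share of regions differed by -12.1 points and the percentile by 1.77. With the mean percentile of a region's peaks in place of the highest, the percentile differed by -20.9 (exact permutation p = 0.1). With a −log10 q of at least 5 the peaks differed by -5.50 points and the percentile by -29.8, and with the 50% of peaks the peaks differed by -5.83 points. Between the libraries with over 100 Y peaks the 4 differences were 0.773, 29.9, 0.26 and 5.80, and between the other 4 they were -4.63, -81.9, -1.76 and -25.98. That split is by number of Y peaks and not by their share of each list. The percentile difference from regions elsewhere ranged from -4.54 to 2.87 with 1 library left out, positive without HOM replicate 2, and was -12.7 with a −log10 q of at least 5 and -9.50 with the 50% of peaks. The log2 length difference was -0.051 with a 2 kb window and -0.127 with at least 3 libraries, at the smallest exact permutation p that 6 libraries allow (0.031), and 0.0327 with merging over gaps up to 200 bp, and -0.0983 to -0.0192 with 1 library left out. Start minus far end turned to -10.5 with the 50% of peaks, -2.14 at equal length, -1.91 with gaps merged, -0.17 with at least 3 libraries and -2.35 with means, and ranged from -1.51 to 2.87 with 1 library left out. Start minus far end was 0 with a 500 bp window and without WT replicate 2. Under the other alternatives run, values kept their direction and side of the threshold and counts stayed within 1.5 times. Except for fewer libraries, peaks or regions entering, the cause was not tested.

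Whether the replicate numbers pair the libraries cannot be told from these values. Deviations of same-numbered libraries correlated at 0.171, 0.184 and -0.203, inside the range of -0.307 to 0.228 for libraries with different numbers. With the replicate block the 4 genotype differences stayed at -2.83, -44.6, -1.09 and -15.4, each with an exact permutation p of 0.5 over 3 pairs, where the smallest is 0.25.

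Lists without read counts leave depth unknown, and 3 libraries a group cannot pass 0.05. The absence of a peak in a short list does not show that acetylation is absent.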

Other observations

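Some genes carried several separate gene-end regions. Myl12a, a myosin regulatory light chain, Ywhag, a 14-3-3 protein, and Rab20 had 6 each, the most of any gene. At equal list length, without HOM replicate 2, the region at Clcn6 and Nppa was among the 24 called in 2 HOM and 0 WT libraries. In the full lists it was called in 2 WT and 2 HOM libraries. Its folds there were 4.03 and 6.72 in WT replicates 2 and 3, against 5.28 and 5.04 in HOM. The lowest fold kept at equal length differed by library, at 4.44, 6.04 and 7.62 in WT, against 5.28 and 3.36 in HOM. The same set of 24 held regions at Atf4, Myot and Pink1. These genes were picked after the values were seen, and no test was made.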
